A study of Mus musculus with 33 samples.

Results

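The genes described here, in single cells of the mouse heart, encode receptor tyrosine kinases and the neuregulin ligand Nrg1. The receptors belong to the neuregulin, insulin-like growth factor, fibroblast growth factor (FGF) and platelet-derived growth factor (PDGF) families. The genes were chosen by symbol from a count table: Erbb2, Erbb3, Erbb4, Nrg1, Igf1r, Insr, Fgfr1, Egfr, Pdgfra and Pdgfrb. Of these 10 genes, 8 are described, out of 14862 gene rows. Erbb3 and Pdgfrb are not analysed here.

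Receptor tyrosine kinases bind growth factors outside the cell and, once paired, phosphorylate adaptor proteins that feed the Ras-ERK and PI3K-Akt pathways. Neuregulin binds ErbB4 or ErbB3, and ErbB2, which has no known ligand of its own, pairs with them. In the embryonic heart, endothelial and endocardial cells are a known source of neuregulin and ventricular muscle carries ErbB2 and ErbB4. IGF1R binds IGF1 and IGF2, while INSR binds insulin and, in its shorter splice form, IGF2.

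Cells came from the ventricles of FUCCI mice that carry mAG-hGem, a fusion of the green fluorescent protein Azami Green to geminin, which accumulates in cells from S phase to M phase. All 4 groups carry this reporter. They comprise 10 mAG-hGem positive and 11 mAG-hGem negative cells of embryonic day 14.5 (E14.5), and 6 positive and 6 negative cells of postnatal day 5 (P5). According to the labels' protocols, cells were dissociated by enzyme and sorted by fluorescence, their mRNA was amplified as antisense RNA, and a PCR for Tnnt2 (cardiac troponin T) and Pdgfrb was used to accept them as cardiomyocytes. The labels give no strain, no promoter for the reporter and no animal, so every group counts as 1 sample. No test between groups was possible and no p-value is given. All intervals are exact 95% intervals for counting error only, and they are far narrower than the spread from cell to cell.

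The labelled cell type was checked against markers before the results were read. A cell was classed as a cardiomyocyte with Tnnt2 of at least 1000 counts per 1000000 (CPM) and Cdh5 (VE-cadherin, an endothelial adhesion gene) under 10 CPM, and as endothelial-like with these limits the other way round. This gave 23 cardiomyocytes, of which 18 were E14.5 cells and 5 were P5 positive cells. The P5 positive cell L2P12 and 5 of the 6 P5 negative cells were endothelial-like, so no P5 negative cell was a cardiomyocyte and each comparison with that group sets different cell types side by side. Of the 8 endothelial markers on the list, summed levels were 7140 to 19409 CPM in the endothelial-like cells and 0 to 12.4 CPM in the P5 cardiomyocytes. Without Cdh5, which set the classes, the other 7 summed to 6607 to 15043 CPM and 0 to 11.9 CPM. In 2 of the endothelial-like cells, L1N3 and L2N10, summed red blood cell markers reached 225566 and 61442 CPM and exceeded the endothelial ones. The other 4 cells were in neither class: G5, G8 and N3 had Tnnt2 under the limit (871, 922 and 362 CPM) with summed cardiomyocyte markers of 17931 to 23793 CPM, while the P5 negative cell L2N12 was led by fibroblast markers at 19501 CPM. The E14.5 negative cell N10 held 46775 CPM of fibroblast markers beside its cardiomyocyte markers. The P5 positive cell L2P10 had 19.8 CPM of summed cycling markers, where the remaining P5 positive cells had 3135 to 5601 CPM. Cell totals lay between 2.54 M and 38.5 M counts (M, 1000000), with group medians of 11.5 M to 16.9 M. Since all E14.5 titles start with G or N and all P5 titles with L1 or L2, prefixes whose meaning the labels do not give, a difference of processing that goes with the prefix cannot be told apart from age.

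Igf1r, the receptor for IGF1 and IGF2, had the highest level of the 8 genes per length of transcript in E14.5 positive cells and a low level in P5 cardiomyocytes. In the GENCODE annotation it lies on the forward strand of chromosome 7, 67952827 to 68233668 (GRCm38). In E14.5 positive cells it ranged from 18.2 through a median of 172 to 741 CPM, and all 10 cells had at least 10 CPM. In E14.5 negative cells it ranged from 0.955 through 198 to 1203 CPM, and 9 of 11 cells had at least 10 CPM. The 5 P5 cardiomyocytes held 1.18 CPM (L1P5), 0.591 CPM (L2P3), 12.9 CPM (L2P7), 13.5 CPM (L2P8) and 0.0796 CPM (L2P10). Every P5 cardiomyocyte was thus below every E14.5 positive cell, although the gap between 13.5 and 18.2 CPM is small and the E14.5 negative cells N7 and N23, at 0.955 and 3.35 CPM, reached down into the P5 range.

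Summed over cells, Igf1r had 203 CPM (200.4 to 205) in the E14.5 positive group and 16.0 CPM (15.2 to 16.9) in the P5 positive one. It was thus 12.6-fold lower at P5, with a log2 ratio of -3.66 (-3.74 to -3.59). The endothelial-like cell L2P12, at 41.8 CPM, gave 63.8% of the P5 positive counts. Over the 5 P5 cardiomyocytes alone the level was 7.68 CPM (7.05 to 8.36) and the log2 ratio to E14.5 positive cells was -4.72 (-4.85 to -4.60), 26.4-fold lower. The E14.5 positive side kept G5 and G8, which were in neither class, and G5 held its highest Igf1r level at 741 CPM. Between P5 cardiomyocytes and E14.5 positive cells, 44.4% of all genes tested were at least 2-fold lower in summed CPM, 26.4% were higher, and 1.45% were lower with no overlap of cells. By these counts Igf1r, Fgfr1 and Erbb2 were lower, also in the median cell, where 28.8% of genes were. Igf1r was the only member of the set without overlap there, and with L2P12 included its cells overlapped too. Cardiomyocyte markers took 28620 to 119946 CPM of each P5 cardiomyocyte and 17931 to 46424 CPM of each E14.5 positive cell. With the 20 most abundant genes of each cell taken out of its total, the ratio of the P5 to the E14.5 positive group was -3.55. Without L2P10, the cell low in cycling markers, it was -3.45.

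Insr, which encodes the insulin receptor (chromosome 8, 3122061 to 3279617, reverse strand, GRCm38), was spread more widely within groups. In summed CPM it differed less between ages than Igf1r. E14.5 positive cells ranged from 0.125 through a median of 66.0 to 127 CPM, and E14.5 negative cells from 0 through 143 to 389 CPM. The P5 cardiomyocytes held 157 CPM (L1P5), 6.69 CPM (L2P3), 17.5 CPM (L2P7), 118 CPM (L2P8) and 0 CPM (L2P10). These 5 values span the whole E14.5 positive range. The summed level was 64.2 CPM (63.0 to 65.5) in E14.5 positive cells and 55.7 CPM (53.9 to 57.5) in P5 cardiomyocytes, of which L2P8 alone gave 81.4% of the counts. Between the positive groups the log2 ratio of P5 to E14.5 was -0.61 (-0.66 to -0.55), short of 2-fold, and without L2P8 it was -2.53. Between the median cells (CPM + 1) of the same groups it was -2.36 for Insr and -4.43 for Igf1r.

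Placed side by side in the same cells, Igf1r and Insr stood in a different order in most E14.5 positive cells than in most P5 cardiomyocytes. Per kilobase of exon, Igf1r exceeded Insr in 8 of 10 E14.5 positive cells and in 6 of 11 E14.5 negative cells, but in 1 of 5 P5 cardiomyocytes, where the exception (L2P10) rests on 1 count of Igf1r and none of Insr. The share of Insr in the summed level of both genes per kilobase was 27.9% in E14.5 positive cells and 89.8% in P5 cardiomyocytes. In E14.5 negative cells it was 39.5%, but the cell N24 alone gave 50.8% of their Igf1r counts. At E14.5, 14 of 21 cells had at least 10 CPM of both genes, 5 of Igf1r only and 2 of Insr only.

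**Figure D1:**
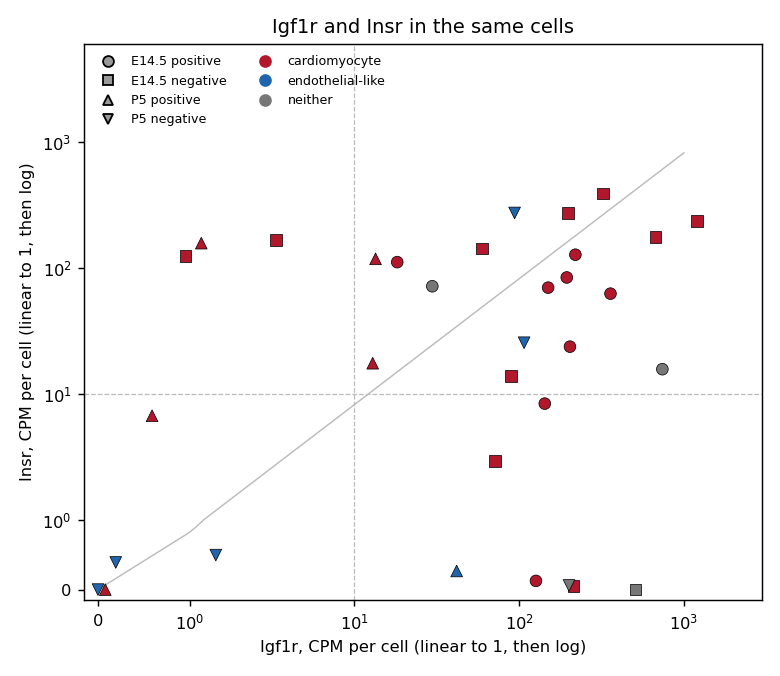
Igf1r (x axis) and Insr (y axis) in each of the 33 cells, in CPM, on axes that are linear up to 1 CPM and logarithmic above. Shape gives the labelled group and colour the class from Tnnt2 and Cdh5; dashed lines mark 10 CPM and the grey curve equal CPM per kilobase of exon. P5 cardiomyocytes (red upward triangles) lie at or below 13.5 CPM of Igf1r while 2 of them exceed 100 CPM of Insr.

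Within E14.5, Insr was lower in reporter positive than in negative cells, in sum and in the median cell. Its summed level was 151 CPM (149 to 153) in negative and 64.2 CPM in positive cells, a log2 ratio of -1.23 (-1.27 to -1.20) or 2.35-fold lower in positive cells. Cells of both groups overlapped, and the ratio was -0.996 without the positive cell G28, just short of 2-fold. Among E14.5 cells with title numbers 1 to 10 the ratio was 0.0865. Igf1r had a ratio of -0.48 (-0.50 to -0.46), short of 2-fold, and 50.8% of its E14.5 negative counts came from the cell N24; without N24 it was 0.36.

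Of the ErbB genes, only Erbb2 was read in many cells, and at a low level. Erbb2 (chromosome 11, 98412470 to 98437716, forward strand, GRCm38) had reads in 8 of 10 E14.5 positive cells, with 0 CPM as the lowest, 2.95 CPM as the median and 6.56 CPM as the highest value. In E14.5 negative cells 6 of 11 had reads, with a median of 0.836 and a highest value of 4.81 CPM. At P5 it was read in the cardiomyocytes L2P3 (3.41 CPM) and L2P7 (0.319 CPM), and in none of the P5 negative cells. The level in L2P3 lies above the E14.5 positive median, and in the other cardiomyocytes no Erbb2 read was found. The summed level was 2.16 CPM (1.93 to 2.399) for E14.5 positive, 1.23 CPM (1.08 to 1.39) for E14.5 negative and 0.608 CPM (0.459 to 0.789) for P5 positive cells. The log2 ratio between the positive groups, P5 to E14.5, was -1.83 (-2.26 to -1.42), and with 0.5 count added on each side it was -5.21 without L2P3, which gave 92.9% of the P5 counts. With cells classed as cardiomyocytes only it was -1.04. Between E14.5 positive and negative cells it was 0.81 (0.57 to 1.06), short of 2-fold.

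Erbb4, the neuregulin-binding partner of ErbB2, was confined in these data to a few E14.5 cells. Reads were found in G1 (7.78 CPM), G29 (0.835 CPM) and G2 (0.595 CPM) among E14.5 positive cells, and in N24 (26.0 CPM) alone among E14.5 negative cells. No P5 cell had a read. With all 607 negative counts in N24, the log2 ratio of E14.5 positive over negative cells was -2.43 (-2.77 to -2.11), and with 0.5 count added it was 7.64 without that cell. Its summed level was under 1 CPM in both positive groups. G1 and N24 were cardiomyocytes by Tnnt2, and of these N24 also held the highest Igf1r level of all cells.

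Nrg1, which encodes neuregulin, was near its detection limit. It had 15 counts in G5 (1.56 CPM), 1 count in N21 and 4 counts in L2P3 (0.263 CPM), and none in the other 30 cells, the 6 endothelial-like cells included. With 3 counts in the whole group as the floor, a count of 0 in P5 negative cells allows up to 0.0362 CPM. Other ErbB ligands were also sparse: of the 7 ligand genes read, Nrg1 included, Areg (amphiregulin) alone reached 1 CPM in the summed counts of P5 positive or E14.5 positive cells. In E14.5 negative cells Areg stood at 6.69, Ereg at 3.24 and Egf at 2.19 CPM, each with at least 10 CPM in 1 cell. Egfr, which encodes the receptor for EGF and amphiregulin, had at most 4 counts per cell except in L2N12, where 1307 counts gave 77.5 CPM. That cell, led by fibroblast markers, gave 99.5% of the P5 negative counts of Egfr.

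Fgfr1, which encodes an FGF receptor with a known part in early cardiomyocyte growth (chromosome 8, 25513654 to 25575718, forward strand, GRCm38), was present at a modest level at E14.5 and at 1 count in all P5 cardiomyocytes together. In E14.5 positive cells it ranged from 0 through a median of 3.19 to 45.8 CPM, with reads in 8 of 10 cells and at least 10 CPM in G8, G2 and G10. In E14.5 negative cells it ranged from 0 through 0.0937 to 14.6 CPM. That count was in L2P8, and the other 4 P5 cardiomyocytes had none. The summed level was 6.82 CPM (6.42 to 7.24) at E14.5 and 0.0109 CPM (0.000275 to 0.0605) at P5 in the positive groups, and the log2 ratio of -9.30 had a wide interval (-14.60 to -6.81). Between E14.5 positive and negative cells the ratio was 1.31 (1.16 to 1.46), but it was 0.30 without G8, 3.46 without N23 and -1.22 among cells with title numbers 21 to 30. Fgfr1 was also read in the P5 negative cells L2N7 (24.02 CPM), L2N9 (2.63 CPM) and L2N12 (2.31 CPM), and the other 3 had none.

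Pdgfra, which encodes a receptor for platelet-derived growth factor and marks cardiac fibroblasts, had 59 counts (6.66 CPM) in the E14.5 positive cardiomyocyte G1 and none in any other cell. The fibroblast-marker cells N10 and L2N12 had no Pdgfra read. G1 also held the highest Erbb4 level of its group, and 10.5 CPM of summed fibroblast markers.

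**Figure D2:**
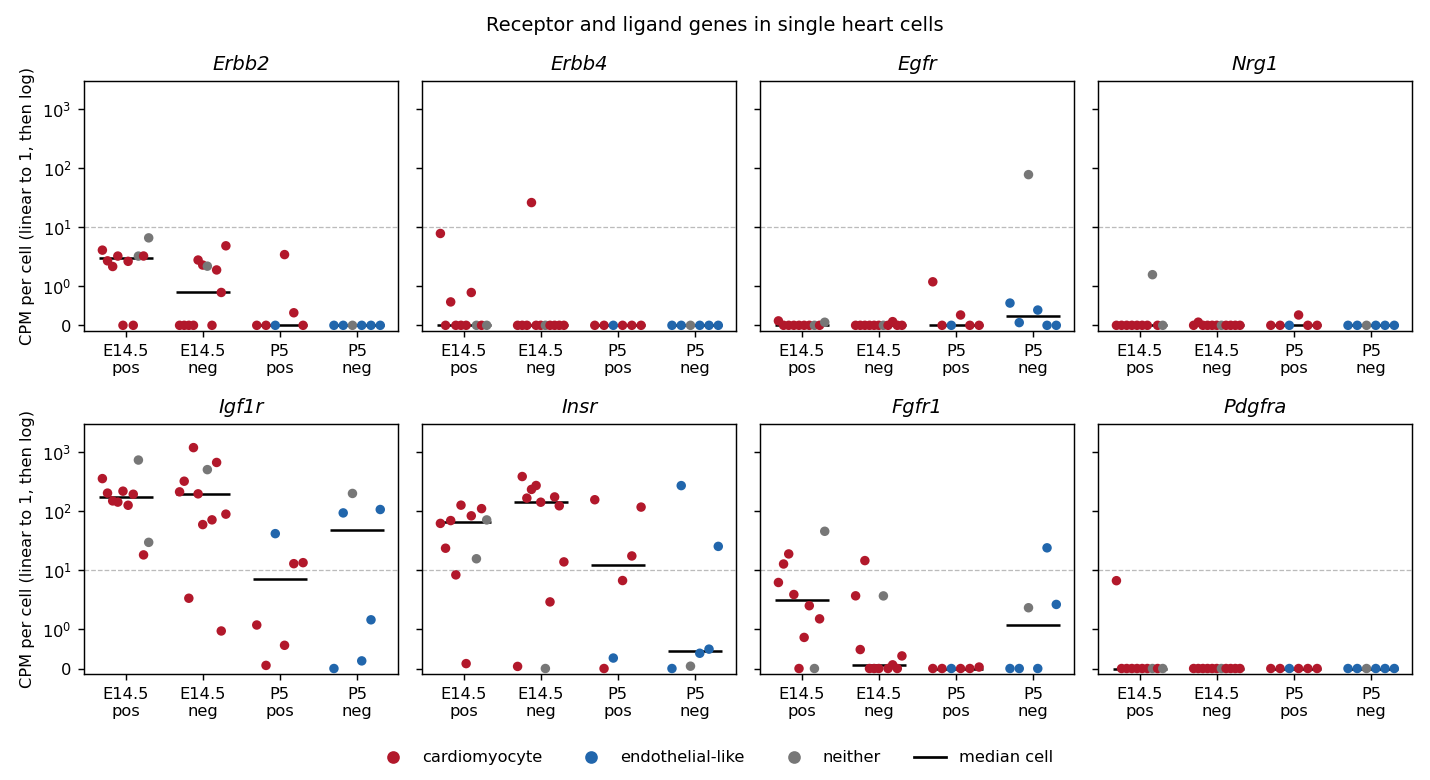
CPM of each of the 8 genes in each of the 33 cells, by labelled group (x axis), on a y axis that is linear up to 1 CPM and logarithmic above. Each point is 1 cell coloured by its class, black bars are median cells and the dashed line is 10 CPM; Igf1r and Insr lie mostly above 10 CPM at E14.5, while Erbb2 lies under it in every cell.

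Per kilobase of exon in E14.5 positive cells, the order was Igf1r at 12.1, Insr at 4.67, Fgfr1 at 0.691, Erbb2 at 0.414, Erbb4 at 0.0466, Pdgfra at 0.0372, Nrg1 at 0.00917 and Egfr at 0.00112 CPM. Cells of neighbouring genes in this order overlapped throughout. In P5 cardiomyocytes Insr came first at 4.05, followed by Igf1r at 0.458 and Erbb2 at 0.154 CPM per kilobase. The other genes were under 0.01 CPM per kilobase there.

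A member was counted as differing between groups where the higher group had at least 1 CPM and the summed CPM differed at least 2-fold. Of the 4 members with at least 1 CPM in P5 positive or E14.5 positive cells, Igf1r, Fgfr1 and Erbb2 were lower at P5 and none was higher. By the same rule 36.3% of all 10640 genes tested were lower and 32.2% were higher, so a lower value is common in this comparison. The same 3 were lower also in the median cell, a rule that 23.3% of genes passed. Between E14.5 positive and negative cells, 5 members were tested: Fgfr1 was higher (18.9% of all genes) and Insr and Erbb4 were lower (27.2%). Fgfr1 and Insr were past 2-fold in the median cell too, where 10% of genes were higher and 5.2% lower.

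In P5 positive over P5 negative cells, Igf1r (-2.17), Fgfr1 (-9.70) and Egfr (-7.70) of 4 tested were lower on the log2 scale, beside 39.1% of all genes, and none was higher, beside 33.2%. Igf1r and Fgfr1 were lower in the median cell as well, beside 15.6%. With 0.5 count added, Egfr was at -0.48 without L2N12, and Igf1r was at -1.29 without L2N12 and at -3.23 without L2P12. Insr was at -0.28, short of 2-fold, at -2.20 without L2P8 and at 3.28 without L2N10. In P5 negative over E14.5 negative cells all 6 members tested differed at least 2-fold. Egfr (11.60) and Fgfr1 (1.72) were higher beside 34.8% of genes, and Igf1r (-1.97) and Insr (-1.56) were lower beside 38.7%. The median cells were lower too for Igf1r (-2.03) and Insr (-6.64), beside 19.6%. Erbb2 and Erbb4 had no P5 negative count and were at least 33.9-fold and 85.8-fold lower against the floor of 3 counts. Several of these rest on 1 cell: with 0.5 count added, Fgfr1 was at -1.13 and Insr at -0.96 without L2N7, Insr was at -5.12 without L2N10, Egfr was at 3.89 without L2N12, and Erbb4 was at 1.05 without N24. Igf1r stayed lower, at -2.85 without L2N12 and -1.13 without N24. Without N8, Erbb2 was under 1 CPM in E14.5 negative cells. These comparisons share groups with each other, so their counts are not independent.

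Endothelial-like cells were set against P5 cardiomyocytes to see how the members differ between these classes at 1 age. All 5 of these cardiomyocytes were reporter positive, while 5 of the 6 endothelial-like cells were reporter negative. Summed cycling markers had medians of 4374 CPM in the cardiomyocytes and 95.9 CPM in the endothelial-like cells. Class can thus not be told apart from reporter and cycling state, here or in the lists below. Igf1r was higher in endothelial-like cells, at 39.8 CPM (38.5 to 41.1) against 7.68 CPM, a log2 ratio of 2.37 (2.24 to 2.51) or 5.18-fold, and 3.28 without L2P8. Its endothelial-like values were uneven: L2N9 held 107, L2N10 held 94.0 and L2P12 held 41.8 CPM, while L2N7, L2N4 and L1N3 held 1.44, 0.194 and 0 CPM. Thus 3 cells lay above and 3 lay within or below the P5 cardiomyocyte range. Fgfr1 had a ratio of 9.13 (6.64 to 14.43), with 95.9% of its endothelial-like counts in L2N7, and without that cell it no longer reached 1 CPM. Insr had a ratio of -0.21 (-0.28 to -0.15), with 92.9% of its endothelial-like counts in L2N10, and without L2N10 and L1N3, the cells led by red blood cell markers, it was at -3.63. Without the cardiomyocyte L2P8 it was at 1.51. Of 3 members tested, 2 were thus higher, beside 45.0% of all genes (31.3% were lower), and Igf1r was higher also in the median cell, beside 22.2%.

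**Figure D3:**
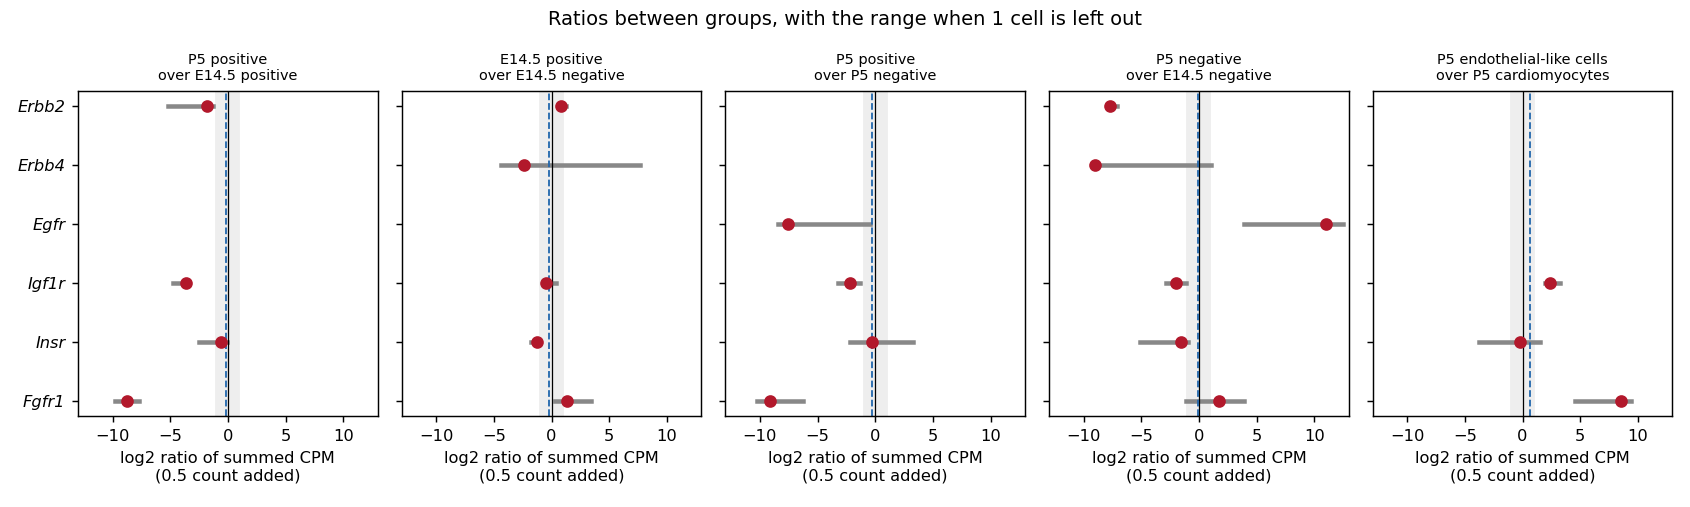
Log2 ratio of summed CPM with 0.5 count added (x axis) for each member tested (y axis) in 5 comparisons. Red points are the values over all cells, grey bars the range when each cell is left out in turn, the shaded band is under 2-fold and the dashed line the median of all genes tested; points of genes with no count in a group depend on the added 0.5 count. Between the positive groups of P5 and E14.5, Igf1r, Fgfr1 and Erbb2 stay below the band whichever cell is left out. Erbb4 crosses 0 in both comparisons in which it was tested.

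RefSeq promoter windows of build GRCm38.p6, from 250 bases before to 50 after a gene's start, were found for 5 members. Those of Igf1r and Erbb2 are shown because both were lower in P5 positive than in E14.5 positive cells in sum and in the median cell. Capitals mark GC boxes, searched as GGGCGG on both strands.
Igf1r: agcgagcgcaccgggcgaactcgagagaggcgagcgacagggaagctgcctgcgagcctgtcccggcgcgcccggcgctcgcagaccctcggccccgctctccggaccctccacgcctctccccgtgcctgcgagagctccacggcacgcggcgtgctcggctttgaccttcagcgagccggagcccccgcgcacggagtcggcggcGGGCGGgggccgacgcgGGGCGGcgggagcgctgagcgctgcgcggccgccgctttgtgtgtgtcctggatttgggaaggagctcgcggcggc
Erbb2: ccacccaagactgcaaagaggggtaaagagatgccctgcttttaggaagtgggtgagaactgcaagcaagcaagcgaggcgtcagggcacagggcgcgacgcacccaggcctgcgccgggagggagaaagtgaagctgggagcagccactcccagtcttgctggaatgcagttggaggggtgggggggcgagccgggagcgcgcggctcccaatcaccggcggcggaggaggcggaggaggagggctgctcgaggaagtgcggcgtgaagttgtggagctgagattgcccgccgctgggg
The Igf1r window, chr7:67952007-67952306 on the forward strand, ends before the GENCODE start given above, since RefSeq's start for this gene lies upstream of it. It had a GC content of 76.0%, above 96.9% of the 32851 promoters in the table, whose median was 52.7%. It held 2 GC boxes, a motif found in 35.7% of all promoters, and no TATAAA, found in 13.6%. The Erbb2 window, chr11:98412234-98412533 on the forward strand, had 66.0% GC and held neither motif. These matches describe letters in a window only.

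For the pathway lists below, the shares of all genes given above for each comparison are the background. The IGF system around the receptors was read through a list of ligands, binding proteins and the IGF2 clearance receptor. From E14.5 to P5 in positive cells, 4 of 8 tested genes of the list were higher and 3 were lower, with a median log2 ratio of 0.58 beside -0.16 over all genes. Without L2P12, 1 of 7 was higher and 6 were lower. Igf1, a ligand of IGF1R, went the other way from its receptor: it had 133 CPM at P5 and 36.9 CPM at E14.5 in the positive groups, with median cells of 107 and 0.0597 CPM. Igf2r, which clears IGF2, was at 68.2 against 576 CPM, a log2 ratio of -3.08. Igf2, the main fetal IGF ligand, was at 188 against 301 CPM, short of 2-fold, and at 59.1 CPM over the P5 cardiomyocytes alone. Igfbp5 was at 0.0651 against 26.7 CPM. Igfbp2 had no P5 positive count and was at least 457-fold lower against the floor of 3 counts, which covers counting error only. In endothelial-like cells over P5 cardiomyocytes, 6 of 7 tested genes were higher, among them Igf2 at 889 against 59.1 CPM, Igfbp7 at 1874 against 0.589 CPM, Igfbp3 at 559 against 0.0287 CPM and Igfbp4 at 692 against 0.373 CPM, while Igf1 was lower at 48.7 against 162 CPM.

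Among adaptors of the insulin and IGF receptors, 4 of 7 tested genes were lower and 1 was higher in P5 positive than in E14.5 positive cells (median -1.26). Over the P5 cardiomyocytes alone, 3 of 7 were lower and 2 higher (median -0.86, beside -0.67 over all genes). Irs1, the main docking protein of these receptors in many cells, was at 6.49 against 148 CPM, a log2 ratio of -4.51 (-4.63 to -4.39). Grb10, an inhibitor of both receptors, was at 936 against 2272 CPM, and the related Grb14 at 101 against 243 CPM. Without L2P12, Grb14 was short of 2-fold. Ptprf, a phosphatase gene, was at 2.46 against 108 CPM. Ptpn1, which encodes the phosphatase PTP1B that acts on the insulin receptor, was higher at 25.5 against 4.74 CPM. In endothelial-like cells Grb14 and Irs1 stood at 0.0339 and 0.0451 CPM, and 5 of 7 tested genes were lower than in P5 cardiomyocytes, Ptpn1 among them at 5.56 against 27.6 CPM.

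Of the other FGF receptors and co-receptors, 4 of 7 tested genes were lower and 2 were higher in P5 positive than in E14.5 positive cells (median -5.13). Gpc3, a glypican of the cell surface, was at 0.857 against 884 CPM. Flrt3, which encodes a membrane protein that binds FGF receptors, had no P5 positive count against 40.2 CPM, at least 1234-fold lower, and Fgfrl1, a receptor without a kinase, had none against 1.27 CPM. Over the P5 cardiomyocytes alone, 4 of 7 were lower and 2 higher (median -4.73, beside -0.67 over all genes). Endothelial-like cells were low in the heparan sulfate carriers Sdc2 (0.0790 against 98.2 CPM in P5 cardiomyocytes) and Gpc1 (0.0226 against 12.04 CPM). Fgfr2 was under 1 CPM and Fgfr3 had no count in either E14.5 positive cells or P5 cardiomyocytes. Among FGF genes, Fgf13, which acts inside the cell on sodium channels, was at 185 CPM over the P5 cardiomyocytes and 147 CPM over the E14.5 positive cells. Fgf16, known as a cardiac ligand, was at 2.46 CPM in P5 cardiomyocytes and had no E14.5 positive count.

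Genes that respond to ERK were lower in 4 of 8 tested and higher in none at P5 in positive cells (median -1.13). Egr1, an immediate early gene, was at 215 against 3452 CPM, a log2 ratio of -4.00. Etv1, a transcription factor gene of the ETS family, was at 4.81 against 27.8 CPM. Over the P5 cardiomyocytes alone, 4 of 8 were lower and none higher (median -1.55, beside -0.67 over all genes). In endothelial-like cells over P5 cardiomyocytes 6 of 8 were higher, with the ERK inhibitor gene Spred1 at 54.9 against 0.0287 CPM, Spry1 at 20.6 against 5.11 CPM and the ERK phosphatase gene Dusp6 at 133 against 41.8 CPM. Spry2 was lower there, at 19.8 against 47.2 CPM. Of 20 shared adaptor and Ras-ERK genes, 6 were higher and 6 lower at P5 in positive cells. Over the P5 cardiomyocytes alone, 5 were higher and 10 lower (median -0.91, beside -0.67 over all genes). Mapk3, which encodes the kinase ERK1, was at 69.7 against 2.10 CPM, but at 14.3 CPM over the P5 cardiomyocytes, which exclude L2P12, and it was not past 2-fold there in the median cell. Members of related pairs differed in opposite directions: Map2k2 was at 193 against 25.5 CPM and Map2k1 at 179.8 against 450.4 CPM, while Hras1 was at 114 against 14.7 CPM and Nras at 41.5 against 204 CPM. In endothelial-like cells over P5 cardiomyocytes 15 of 21 genes of the list were higher and 1 was lower, with Braf at 42.8 against 1.03 CPM and Nf1 at 14.5 against 0.172 CPM. Of 18 PI3K-Akt genes, 5 were higher and 7 lower at P5 in positive cells. Lower were Rictor at 1.94 against 51.6 CPM and Mtor at 14.01 against 83.9 CPM, and higher were Phlpp1, an Akt phosphatase gene, at 41.9 against 2.41 CPM, Tsc2 at 14.3 against 3.85 CPM and Akt1 at 29.5 against 14.5 CPM. Without L2P12, Akt1 was short of 2-fold, at 0.97 on the log2 scale, and the genes of this list higher in the median cell too numbered 1 in place of 3. Endothelial-like cells had 7 of 19 genes higher than P5 cardiomyocytes, among them Foxo1 (53.1 against 2.499 CPM) and Pik3cb (22.1 against 6.89 CPM), and 6 lower, among them Pik3ca (7.97 against 27.8 CPM) and Pdpk1 (15.9 against 40.03 CPM).

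Genes for the shedding and turnover of ErbB proteins were lower in 5 of 11 tested and higher in 3 (median 0.31) between the positive groups. Without L2P12, 7 of 11 were lower and 3 higher (median -1.44, beside -0.67 over all genes). Errfi1, an inhibitor of ErbB kinases, was at 0.206 against 5.98 CPM and Usp8 at 2.28 against 64.6 CPM. The ubiquitin ligase gene Cblb was at 1.64 against 13.5 CPM. Lrig2 was higher at 20.3 against 2.99 CPM. In endothelial-like cells over P5 cardiomyocytes, the sheddase genes Adam10 (318 against 30.6 CPM), Adam17 (228 against 10.3 CPM) and Adam19 (39.0 against 2.94 CPM) were higher, and Lrig1, a negative regulator of ErbB receptors, was lower at 0.598 against 31.3 CPM. For the PDGF ligands the classes were opposed: Pdgfb was at 49.2 CPM in endothelial-like cells with no count in P5 cardiomyocytes, and Pdgfa at 0.327 against 229 CPM.

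**Figure D4:**
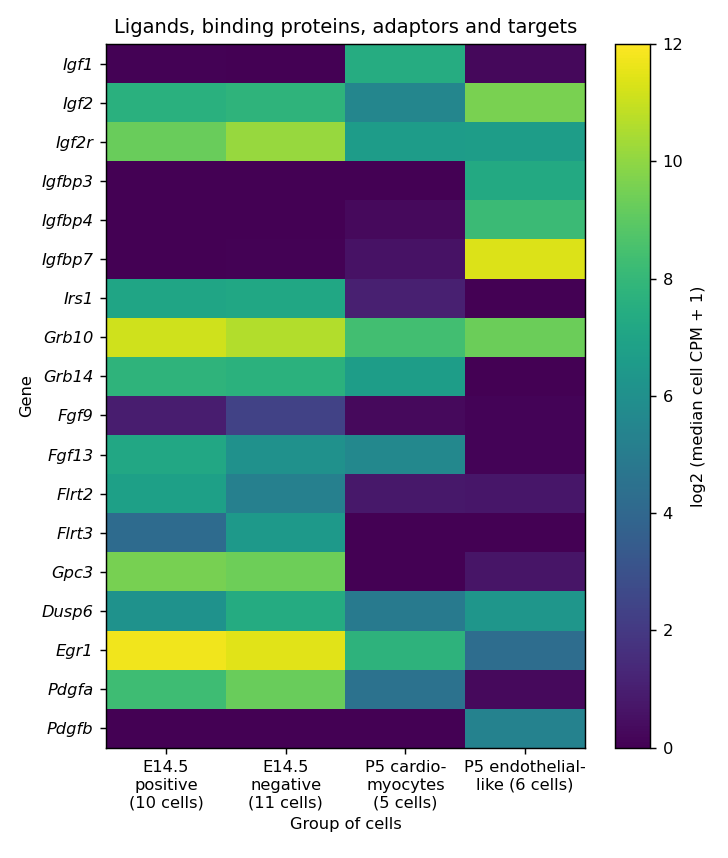
Level of 18 genes of the lists (y axis) in 4 groups of cells (x axis), as the log2 of the median cell's CPM plus 1 (colour). Among these 4 groups the median cell of Igf1 is highest in P5 cardiomyocytes and those of Igfbp3, Igfbp4, Igfbp7 and Pdgfb in endothelial-like cells, while Flrt2, Flrt3, Gpc3 and Irs1 are higher in both E14.5 groups than in either P5 class.

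The genes most like each member were read as Pearson correlations of log2(CPM + 1), without a test, among genes with at least 10 CPM in at least 5 cells. Over the 33 cells Igf1r was most like Nbea (r = 0.79), Cdkn1c (0.76), which encodes a cyclin-dependent kinase inhibitor, and Cyr61 (0.73). Over the 23 cardiomyocytes it was most like Cnn3 (0.87), Ccdc88a (0.85) and Usp4 (0.85), and Insr most like X2810403A07Rik (0.78) and Pigx (0.75). All points share the difference of age and of depth between cells. Fgfr1 reached 0.82 with Fam101b and Erbb2 0.76 with Zfp788 over the cardiomyocytes, but Fgfr1 had at least 10 CPM in 3 of those cells and Erbb2 in none. At E14.5, Igf1r and Insr had an r of -0.16 over 21 cells.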

How the data were processed

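Single cells were profiled by RNA sequencing after antisense RNA amplification. The authors deposited raw read counts per gene as whole numbers, and per the submitters' processing notes CASAVA 1.8.2, STAR 2.4.0j, HTSeq 0.6.1p1 and mm10 were used. The annotation, and whether molecular identifiers were used, are not given in the sources used here, so reads are not independent molecules. Counts were scaled to the cell total (2.54 M to 38.5 M counts, M standing for 1000000) as CPM, or summed over the cells of a group first. Summed CPM have exact Poisson intervals, and ratios of summed CPM have exact Clopper-Pearson binomial intervals, computed with scipy 1.17.1. A group without a count was compared through a floor of 3 counts over the group, and intervals and floors cover counting error only. Calls asked for at least 1 CPM in the higher group and a 2-fold ratio with 0.5 count added, and a second rule also asked for 2-fold between median cells (CPM + 1). Exon lengths and positions are from GENCODE on GRCm38. The labels name no animals, so no test was made. The code was tested on simulated data. Alternatives were equal weights, edgeR 4.0.16 TMM factors, DESeq2 1.42.0 size factors, no minimum CPM, thinning to 8671357 counts, totals without the 20 most abundant genes, cell subsets and leaving out each cell. Members and lists were chosen with earlier results of these data known. Of each list, genes named are the 3 highest and 3 lowest passing both rules in P5 positive over E14.5 positive cells and in endothelial-like cells over P5 cardiomyocytes, with direct partners. Some genes this rule names are not reported here. The list genes plotted were chosen after their values were seen.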

Additional observations from a re-analysis of the deposited data

Results flagged for a closer look

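In 18 sets of values, each 1 gene in 1 group of 6 or 10 cells, the cell at one end was compared with its nearest neighbour by Dixon's limit, and in 13 of them it stood apart. Chance alone does this in about 1 of 20 sets of normally distributed values, and genes read in few cells pass the limit easily. The 11 E14.5 negative cells were too many for the rule and were not tested. At 10 CPM or more, 6 cells stood apart. Igf1r was at 741 CPM in the E14.5 positive cell G5, with the next cell at 359 CPM, and at 41.8 CPM in the P5 positive endothelial-like cell L2P12, with the next at 13.5 CPM. Insr was at 273 CPM in the P5 negative cell L2N10 (next 25.4 CPM). Fgfr1 was at 45.8 CPM in the E14.5 positive cell G8 (next 18.9 CPM) and at 24.02 CPM in the P5 negative cell L2N7 (next 2.63 CPM). Egfr was at 77.5 CPM in the P5 negative cell L2N12 (next 0.566 CPM).

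Under 10 CPM the cells were G1 with 7.78 CPM of Erbb4 and 6.66 CPM of Pdgfra, L2P3 with 3.41 CPM of Erbb2 and 0.263 CPM of Nrg1, G5 with 1.56 CPM of Nrg1, L1P5 with 1.18 CPM of Egfr, and L2P8 with 0.0374 CPM of Fgfr1.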

How the results depend on the processing

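Without a minimum of 1 CPM, members past 2-fold numbered 7 in P5 positive over E14.5 positive cells, 6 in E14.5 positive over negative, 5 in P5 positive over negative and 4 in endothelial-like cells over P5 cardiomyocytes, where thinning, which also left out 6 shallower cells, gave 4 as well. The main counts were 3, 3, 3 and 2, and 6 in P5 negative over E14.5 negative cells. Leaving out each cell in turn gave 3 to 4, 2 to 4, 2 to 4 and 1 to 4 members in the same order, and 5 to 6 in P5 negative over E14.5 negative cells. In E14.5 positive over negative cells, ratios with title numbers 1 to 10 were 7.16 for Erbb4 and 0.0865 for Insr, and with numbers 21 to 30 -1.22 for Fgfr1, all opposite in sign to those over all cells. Ratios that leaving out 1 cell turned ran from -4.36 to 7.64 for Erbb4 and from -0.75 to 0.36 for Igf1r there. In P5 negative over E14.5 negative cells they ran from -9.29 to 1.05 for Erbb4 and from -1.13 to 3.87 for Fgfr1. For Insr they ran from -2.20 to 3.28 in P5 positive over negative cells. In endothelial-like cells over P5 cardiomyocytes those of Insr ran from -3.77 to 1.51. The causes were not tested. Scaling moved the median log2 ratio of all genes in P5 positive over E14.5 positive cells from -0.16 to 0.00 (TMM) and 0.24 (size factors), and Igf1r from -3.66 to -3.50 and -3.28. With size factors the median moved from -0.10 to 0.16 in P5 negative over E14.5 negative cells, from 0.63 to 0.34 in endothelial-like cells over P5 cardiomyocytes and from -0.18 to -0.30 in E14.5 positive over negative cells, and with TMM from -0.31 to -0.16 in P5 positive over negative cells. Nrg1, Erbb4, Egfr and Pdgfra had no read in most cells, where a count of 0 sets no more than an upper limit at this depth. With Tnnt2 at 500 and Cdh5 at 5 CPM, 25 cells were cardiomyocytes and 6 endothelial-like. No paired analysis was possible because replicate numbers follow accession order only and the results come from no test.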
